A study of Mus musculus with 8 samples.

Results

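The genes described here recognise phosphatidylserine on dying cells or carry out their engulfment, a process called efferocytosis. The set held 10 genes chosen by name from this function: the receptors Cd36, Mertk, Axl, Stab1 and Lrp1, the bridging proteins Gas6, Pros1 and Mfge8, and the engulfment signalling genes Elmo1 and Dock1. They were 10 of 19505 genes with a symbol on the array, and each was represented by 1 transcript cluster, the array's unit for a gene. All 10 passed the filter on low values, which kept 10871 genes whose highest log2 signal over the 8 arrays reached 4.86, the median of the table.

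The samples were bone marrow cells of the mouse strain C57BL6/J in 4 cultures, each taken on days 6 and 3 of treatment with 1 array per culture and day. The PSS1-LMS and PSS1-WT cultures were given the macrophage growth factor M-CSF (50 ng/ml) and the osteoclast-inducing cytokine RANKL (100 ng/ml), and a day later a retroviral vector for mutant or wild-type PSS1. The M-CSF+RANKL culture was given both factors, and the M-CSF culture was given M-CSF without RANKL. The labels do not give the mutation, the species of the PSS1 insert, the age or number of the mice, or whether the cultures without PSS1 received an empty vector.

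A dying cell exposes phosphatidylserine on its outer surface, where phagocytes bind it directly, through receptors such as stabilin-1, or through a soluble bridging protein. Gas6 links the lipid to the receptor tyrosine kinases Mertk and Axl, protein S links it to Mertk, and Mfge8 links it to integrins. The bound corpse is then drawn in by the activator complex of Elmo1 and Dock1, which switches on the GTPase Rac. PSS1, the product of Ptdss1, makes phosphatidylserine from phosphatidylcholine. Macrophages are the main cells that clear corpses, and osteoclasts, the bone-resorbing cells, arise from the same precursors under M-CSF and RANKL.

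The brightest of 23 probe sets for background, designed against no mouse sequence, had a log2 signal of 5.54 to 7.13 by array, and a value at or under that of its own array is called within background. The 6 arrays with RANKL correlated with each other at 0.982 to 0.993 over the measured genes, and with the M-CSF arrays at 0.832 to 0.889. Ptdss1 stood at 17.50 and 18.79 in PSS1-LMS and at 18.06 and 18.91 in PSS1-WT on days 6 and 3, against 9.56 to 10.36 in the other 4 arrays. All 10 osteoclast markers on the list rose with RANKL, and their summed log2 level was 21.57 to 21.75 in the 6 arrays with RANKL, against 12.84 and 8.89 in M-CSF on days 6 and 3. Of 8 measured macrophage markers 7 fell with RANKL, and their summed level was 16.41 to 16.77 in the arrays with RANKL, against 19.63 and 18.24 in M-CSF. The 8 measured neutrophil markers fell by day 6 in the fit, with summed levels of 7.40 to 7.70 on day 6 and 14.11 to 14.68 on day 3. Both measured dendritic cell markers of 5 listed (Itgax and H2-Aa) rose with RANKL and 1 of 3 megakaryocyte markers (Pf4) fell. Itgax was within background on 7 of the 8 arrays, all but M-CSF+RANKL on day 6. All 9 stromal, 4 endothelial, 3 B cell and 4 T and NK cell markers on the array lay within background on every array.

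No group had replicate arrays, and the labels do not say whether the cultures came from separate animals. A difference between cultures was therefore averaged over days 6 and 3 and tested with limma, with culture and day as terms. Its error is how far the culture differences changed between the days, drawn by limma towards the spread common to all measured genes. The p-values therefore measure only the spread between these arrays. Adjusted p-values are Benjamini-Hochberg values from that fit over the 10871 genes, with 0.05 as the threshold, and errors are standard errors (SE). Log2 signals compare 1 gene between arrays and do not rank one gene against another. In bulk RNA, fewer cells of a type and less RNA per cell cannot be told apart.

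RANKL went with lower levels of most of these genes. In the M-CSF+RANKL culture against the M-CSF culture, 8 of the 10 fell (Cd36, Mertk, Gas6, Pros1, Stab1, Elmo1, Dock1 and Lrp1), Mfge8 rose, and Axl did not pass the test. Of all measured genes 26.4% were called in this comparison, 12.4% lower and 14.1% higher. The median log2 difference of the 10 was -4.57, against 0.03 over all measured genes, and -4.14 with genes that were within background in M-CSF+RANKL taken at that background. The 10 genes were chosen with earlier results of these data known, so their count and median are a description. Macrophage and osteoclast markers moved in the same comparison as given above, and their part in these differences was not tested.

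Cd36, a class B scavenger receptor that binds oxidised lipids and phosphatidylserine, gave the largest measured log2 difference. Its log2 signal was 10.03 and 7.84 in M-CSF+RANKL on days 6 and 3, against 17.77 and 16.43 in M-CSF. The 4 arrays of the PSS1 cultures lay between 9.05 and 12.62. All 6 arrays with RANKL were below both M-CSF arrays. The difference was -8.17 ± 0.50 (SE, limma adjusted p = 3.14e-05), 288-fold lower with RANKL.

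Stab1, the scavenger receptor stabilin-1, had 5.88 and 5.06 in M-CSF+RANKL, against 13.49 and 12.37 in M-CSF on days 6 and 3. In PSS1-LMS it had 5.77 and 5.58, and in PSS1-WT 6.14 and 6.20. It was bright in M-CSF and near or within background on every array with RANKL. The log2 difference was -7.46 ± 0.37 (limma adjusted p = 1.38e-05), at least 127-fold lower, where the fold was taken against the background of arrays on which the gene was within it.

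Lrp1, the large endocytic receptor that takes up ligands and takes part in calreticulin-dependent engulfment, stood at 9.97 and 9.48 in M-CSF+RANKL, against 15.26 and 15.23 in M-CSF. The PSS1 arrays had 9.73 to 10.91. The groups did not overlap, and the M-CSF values on the 2 days were nearly equal. Lrp1 fell by 5.52 ± 0.31 on the log2 scale (limma adjusted p = 2.47e-05), 45.9-fold.

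Mertk, a receptor tyrosine kinase through which macrophages take up apoptotic cells, had log2 signals of 4.94 and 4.38 in M-CSF+RANKL, against 12.25 and 9.32 in M-CSF on days 6 and 3. On the PSS1 arrays it lay between 4.93 and 6.07. All 6 arrays with RANKL were within background, whereas both M-CSF arrays were above it. The log2 difference was -6.12 ± 0.59 (limma adjusted p = 0.000237), at least 30.9-fold lower.

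Axl, the related kinase that is induced in inflamed macrophages and prefers Gas6, had 4.28 and 4.60 in M-CSF+RANKL, against 5.68 and 5.32 in M-CSF, and 4.31 to 5.02 on the PSS1 arrays. All 8 values were within the background of their arrays, so the gene had only an upper bound and no fold is given. The difference of -1.06 ± 0.37 did not pass the test (limma adjusted p = 0.0704).

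Gas6, the vitamin K-dependent ligand of Mertk and Axl, had 7.70 and 6.53 in M-CSF+RANKL, against 16.20 and 13.06 in M-CSF on days 6 and 3. In PSS1-LMS it had 7.61 and 5.46, and in PSS1-WT 7.72 and 5.57. In every culture with RANKL the day 3 value was the lower one, and on that day both PSS1 arrays were within background. The log2 difference was -7.52 ± 0.45 (limma adjusted p = 2.93e-05), 183-fold lower with RANKL.

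Pros1 encodes protein S, a plasma anticoagulant and bridging ligand of Mertk. Its log2 signal was 5.37 and 5.73 in M-CSF+RANKL, against 9.52 and 8.83 in M-CSF, and 5.72 to 6.12 on the PSS1 arrays. The arrays with RANKL were close together and clear of both M-CSF arrays, but 5 of these 6 were within background, all but PSS1-WT on day 6. Pros1 fell by 3.62 ± 0.34 (log2, limma adjusted p = 0.000208), at least 10.1-fold.

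Mfge8, whose protein binds phosphatidylserine through its discoidin domains and integrins through an RGD motif, went the other way. Its log2 signal was 12.50 and 12.09 in M-CSF+RANKL, against 9.12 and 7.86 in M-CSF on days 6 and 3. The PSS1 arrays held 11.69 to 12.13. Each of the 6 arrays with RANKL was higher than both M-CSF arrays, and the 6 lay within 1 log2 unit of each other. Mfge8 was 13.96-fold higher with RANKL, a log2 difference of 3.80 ± 0.36 (limma adjusted p = 0.000220).

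Both signalling genes fell by less than the receptors that were called. Dock1, the exchange factor that acts on Rac, had 7.15 and 7.04 in M-CSF+RANKL, against 10.28 and 9.86 in M-CSF, and fell by 2.97 ± 0.28 (log2, limma adjusted p = 0.000220), 7.85-fold. Elmo1, its partner that brings it to the membrane, had 11.29 and 11.30 in M-CSF+RANKL, against 12.34 and 13.13 in M-CSF. Elmo1 was the smallest of the called changes, 2.72-fold lower at -1.44 ± 0.36 (limma adjusted p = 0.0201). On the PSS1 arrays Dock1 had 6.43 to 7.42 and Elmo1 11.07 to 11.51, below both M-CSF arrays for either gene. Leaving out the M-CSF+RANKL culture on day 6 or on day 3 ended the Elmo1 call, at limma adjusted p = 0.128 without day 6 and 0.163 without day 3.

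Counted without a model, 9 members (all but Mfge8) were lower on all 6 arrays with RANKL than on both M-CSF arrays, which held for 20.8% of all measured genes. Mfge8 was higher on all 6, which held for 22.2% of them. Axl, among the 9, was within background on every array, so its order carries no measured difference.

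**Figure D1:**
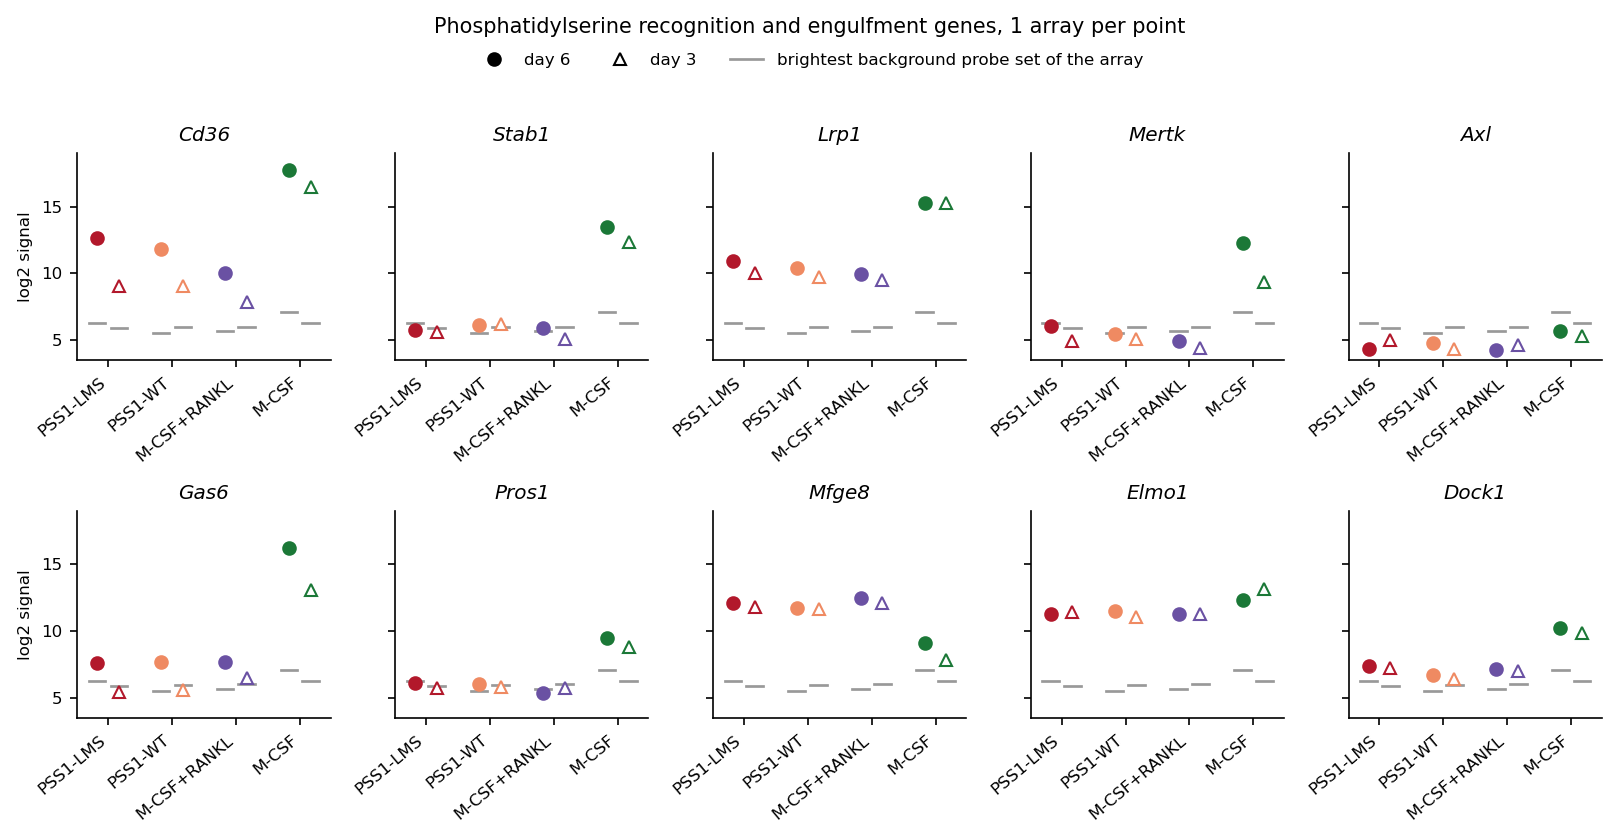
Log2 signal (vertical axis) of each of the 10 genes, 1 per panel, on the 8 arrays by culture, with filled circles for day 6, open triangles for day 3 and a grey dash at each array's brightest background probe set. The 2 M-CSF arrays stand above the 6 arrays with RANKL for 9 genes and under them for Mfge8.

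**Figure D2:**
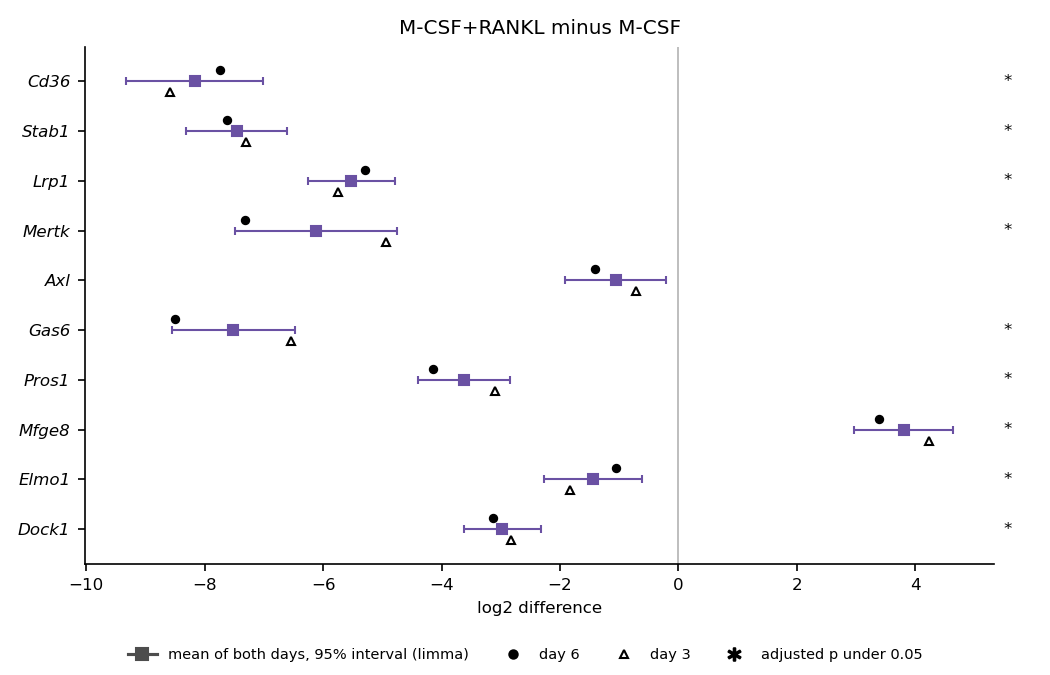
Log2 difference M-CSF+RANKL minus M-CSF for the 10 genes, with squares for the limma mean of both days, bars for its 95% interval, circles for day 6 and triangles for day 3. Of the 10, Mfge8 lies above 0 at 3.80 and the other 9 lie under it, down to -8.17 for Cd36.

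The start regions of the 5 members that fell by at least 30.9-fold, and of Mfge8, which rose, are given from RefSeq on the mouse build GRCm38.p6, as the 250 bases before and 50 after the annotated start, 5′ to 3′ on the gene's own strand. Capitals mark every match, on either strand, to 6 motifs: GAGGAA for PU.1, TGCTGA for MAF, TGGAAA for NFAT, TGANTCA for AP-1, CACGTG for the E-box of the MiT factors, and GGGCGG for the GC box. No 2 matches overlap in the windows shown. They are the regions of Cd36 (chr5:17835847-17836146, minus strand), Gas6 (chr8:13494486-13494785, minus strand), Stab1 (chr14:31168592-31168891, minus strand), Lrp1 (chr10:127621099-127621398, minus strand), Mertk (chr2:128698665-128698964, plus strand) and Mfge8 (chr7:79149011-79149310, minus strand). The Cd36 start lies 53063 bases inside the outer end of the gene.
Cd36: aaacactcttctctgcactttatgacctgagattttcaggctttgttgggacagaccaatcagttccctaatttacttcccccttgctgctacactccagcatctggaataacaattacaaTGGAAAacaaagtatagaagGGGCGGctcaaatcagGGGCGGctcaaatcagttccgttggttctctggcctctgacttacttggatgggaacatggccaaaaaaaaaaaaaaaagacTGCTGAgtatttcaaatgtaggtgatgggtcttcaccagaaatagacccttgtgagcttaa
Gas6: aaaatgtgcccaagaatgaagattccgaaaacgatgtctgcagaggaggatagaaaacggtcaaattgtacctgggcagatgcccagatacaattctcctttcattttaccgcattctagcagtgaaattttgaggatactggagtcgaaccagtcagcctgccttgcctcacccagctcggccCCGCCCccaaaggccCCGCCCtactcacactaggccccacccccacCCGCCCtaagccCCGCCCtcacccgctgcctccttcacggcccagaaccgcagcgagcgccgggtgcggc
Stab1: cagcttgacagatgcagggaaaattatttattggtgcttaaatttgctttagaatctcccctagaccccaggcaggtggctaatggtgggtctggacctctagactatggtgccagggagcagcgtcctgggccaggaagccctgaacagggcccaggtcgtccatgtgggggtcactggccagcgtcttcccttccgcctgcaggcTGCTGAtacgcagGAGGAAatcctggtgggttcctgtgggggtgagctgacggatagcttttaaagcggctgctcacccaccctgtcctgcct
Lrp1: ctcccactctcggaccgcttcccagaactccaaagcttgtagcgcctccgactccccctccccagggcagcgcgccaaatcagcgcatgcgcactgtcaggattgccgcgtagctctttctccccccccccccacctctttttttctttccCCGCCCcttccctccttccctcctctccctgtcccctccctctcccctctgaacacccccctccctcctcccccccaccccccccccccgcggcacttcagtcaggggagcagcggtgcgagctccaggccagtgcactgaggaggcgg
Mertk: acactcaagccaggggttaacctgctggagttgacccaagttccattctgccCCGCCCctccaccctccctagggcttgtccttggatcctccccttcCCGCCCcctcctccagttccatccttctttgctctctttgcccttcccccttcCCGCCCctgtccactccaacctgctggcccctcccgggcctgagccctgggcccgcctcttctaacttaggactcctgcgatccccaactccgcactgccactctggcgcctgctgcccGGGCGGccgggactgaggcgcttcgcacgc
Mfge8: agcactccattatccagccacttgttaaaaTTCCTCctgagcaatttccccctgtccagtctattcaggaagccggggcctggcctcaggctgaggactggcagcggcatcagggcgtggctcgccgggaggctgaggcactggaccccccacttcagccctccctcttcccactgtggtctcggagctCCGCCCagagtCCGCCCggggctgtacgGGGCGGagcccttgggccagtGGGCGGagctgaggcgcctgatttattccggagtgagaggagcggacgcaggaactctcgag
In Cd36 the MAF motif lay at position -11 and the NFAT motif at -129 relative to the start. In Stab1 the PU.1 motif lay at -30 and the MAF motif at -43. The Mfge8 window held 1 PU.1 motif, at -220, and 4 GC boxes, and Mertk and Gas6 held GC boxes alone, 4 each. The Lrp1 window held 1 GC box, at -99. All 10 genes matched the promoter table, with 11 windows, since Elmo1 has 2.

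Over the 10 genes, GC boxes were present in 9 (all but Stab1), PU.1 motifs in 5, NFAT motifs in 3 and MAF motifs in 2. Of 32851 promoter windows in the same table, 35.7% held a GC box, 28.3% a PU.1 motif, 21.4% an NFAT motif and 19.5% a MAF motif. No member's window held the AP-1 motif or CACGTG, which were present in 7.81% and 7.15% of all windows. The matches are letters in a window and describe no binding, and Mfge8, which rose, and Stab1, which fell, both held the PU.1 motif.

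Other genes of the pathway were followed in 7 lists by role in the same comparison. Log2 differences are as measured for genes above background on both sides, and a fold given as "at least" was taken against the background of the dim side. Among 14 measured phosphatidylserine receptors beside the members, of 20 listed, 6 fell and 3 rose, with a median log2 difference of -1.61. The integrin chains split: Itgb3, the beta chain of the osteoclast vitronectin receptor, rose at least 228-fold and its partner Itgav by 4.59 on the log2 scale, while Itgb5, the beta chain of the other integrin to which Mfge8 binds, had a difference of -5.15. Itgb3 was at 14.21 and 14.88 in M-CSF+RANKL, against 4.89 and 4.85 in M-CSF on days 6 and 3. Itgb5 was at 7.08 and 7.64 in M-CSF+RANKL, against 12.47 and 12.54 in M-CSF. Trem2, a lipid-sensing receptor, had a difference of -5.78, and the scavenger receptor Scarf1 rose by 2.58.

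Of 11 measured bridging proteins and opsonins (13 listed), 3 fell and 2 rose, and the median was -0.10. Those that fell were the subunits of C1q, the complement protein that coats corpses, with log2 differences of -8.29 for C1qc and -8.17 for C1qb, and a fall of at least 332-fold for C1qa. Edil3, a relative of Mfge8 that binds phosphatidylserine and integrins in the same manner, was at 12.32 and 11.81 in M-CSF+RANKL, against 5.34 and 4.10 in M-CSF, both within background, and rose at least 40.8-fold (limma adjusted p = 1.21e-05). Mfge8 and Edil3 were thus both higher on every array with RANKL. Anxa1, a protein that binds phosphatidylserine in the presence of calcium, rose by 1.94.

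Among 19 measured engulfment signalling genes (20 listed), 4 fell and 3 rose, with a median of -0.62. Within the Dock family, Dock5 rose by 6.34 and Dock2 and Dock8 had differences of -4.45 and -1.61. Dock5, a Rac activator needed by osteoclasts, was at 14.89 and 14.95 in M-CSF+RANKL, against 8.18 and 8.99 in M-CSF. Rac2, the blood cell form of Rac, rose by 3.20, and Bcar1, the adaptor p130Cas, was at 7.69 and 6.93 in M-CSF+RANKL, against values within background in M-CSF, and rose at least 1.52-fold. Elmo2 fell at least 3.81-fold, and Vav1, another Rac activator, had a difference of -1.33.

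The find-me and keep-out list had 9 measured genes of 10, of which 5 fell and 1 rose, with a median of -1.10. Among receptors for signals from dying cells, the nucleotide receptor P2ry6 had a difference of -6.41. The sphingosine-1-phosphate receptor S1pr1 and the fractalkine receptor Cx3cr1 were within background in M-CSF+RANKL, and S1pr1 fell at least 5.14-fold. Cx3cr1 was called lower, but it was within background on the M-CSF array of day 6 too, at 5.62, so no fold is given. On the M-CSF array of day 3 it was at 9.57. Panx1, the channel that releases nucleotides, was at -2.05 and Cd47, the keep-out signal, at -1.10. Gpr132, a receptor linked to lysophosphatidylcholine, rose at least 3.37-fold.

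Of 15 measured genes of corpse degradation (16 listed), 3 fell and the median was -0.04. They were Cybb, the catalytic chain of the phagocyte oxidase, at -4.74, the lysosomal lipase Lipa at -2.14 and the endosome gene Uvrag at -1.38. Of 6 measured nuclear receptors and lipid efflux genes (10 listed), Rxra and Pparg fell at least 4.38-fold and at least 4.01-fold, with a median of -0.94. Nr1h3 was called higher, but 3 of its 4 values were within background, so no fold is given. Of 7 measured genes that process or control Mertk, Axl and Lrp1 proteins (10 listed), 4 fell, with a median of -1.30. Adam17 and Adam10, the proteases that cut Mertk and Axl from the surface, were at -2.49 and -1.37, the vitamin K enzyme Vkorc1 was at -1.51 and the Lrp1 chaperone Lrpap1 at -1.30.

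Several of the smaller pathway changes rested on single arrays. Cd47 and Adam10 each lost the call without any 1 of 7 arrays. With the day 3 sample of M-CSF+RANKL left out, Cd300a, Cd300lf, Cx3cr1, Dock8, Elmo2, Lrpap1, Rac2, Scarf1, Uvrag, Vav1 and Vkorc1 lost it, and with its day 6 sample left out Cd300a, Cd300lf, Cx3cr1, Dock8, Lrpap1, Nr1h3, Uvrag, Vav1 and Vkorc1 did. With every value raised to the brightest background signal, Adam10, Bcar1, Cd300lf, Cx3cr1, Rxra and S1pr1 were no longer called, Bcar1 at 0.28, S1pr1 at -1.25 and Cx3cr1 at -1.22.

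**Figure D3:**
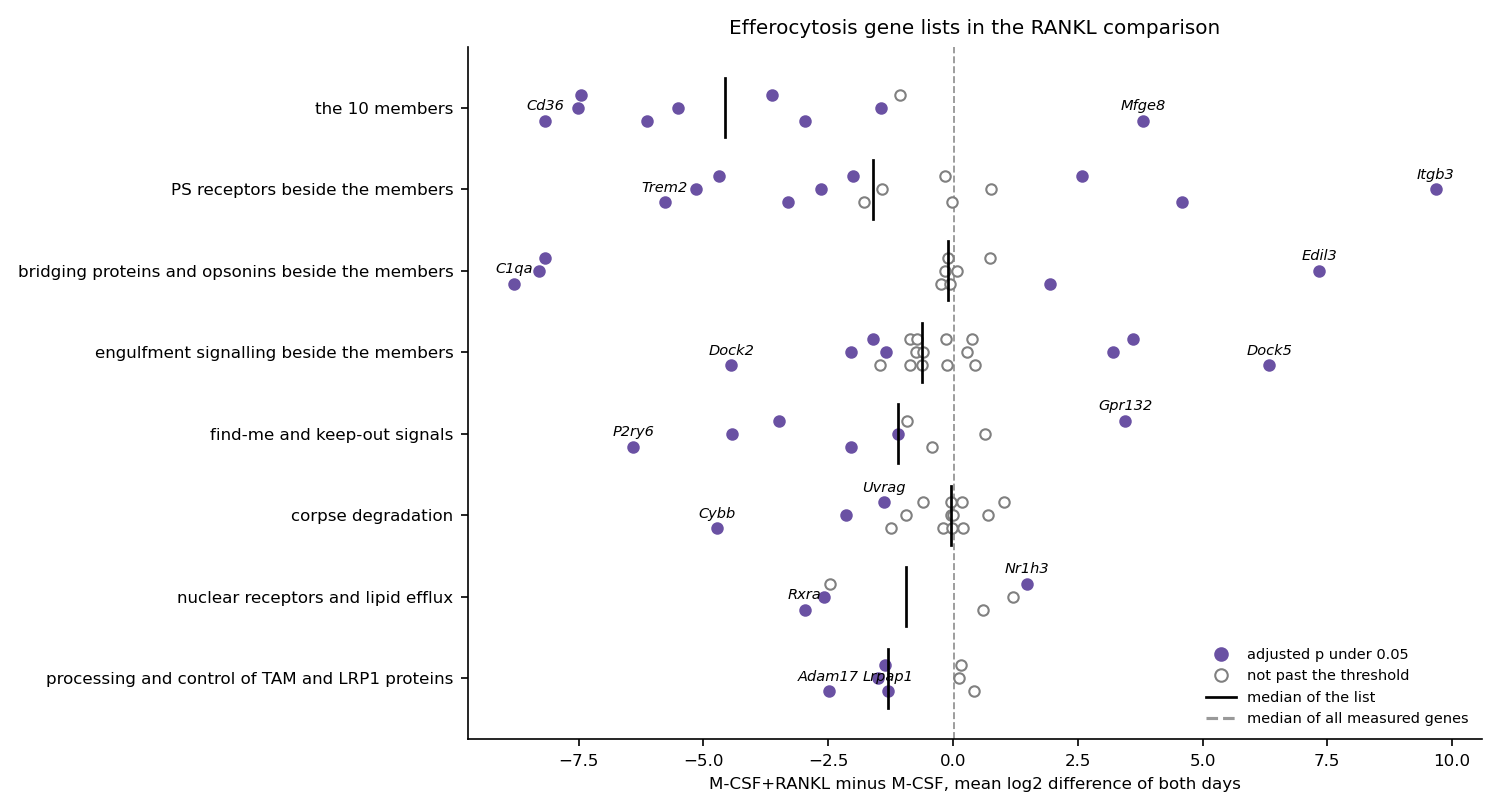
Log2 difference M-CSF+RANKL minus M-CSF for the measured genes of the 7 pathway lists, with the 10 members in the top row. Each point is 1 gene, filled where its limma adjusted p was under 0.05, and black bars are list medians. Differences are as measured, also where the dim side was within background. The members lie between -8.17 and 3.80.

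Expression of PSS1 was compared within the 6 arrays with RANKL. Cd36 was the 1 member called in PSS1-LMS against M-CSF+RANKL. Its log2 signal was 12.62 and 9.05 in PSS1-LMS on days 6 and 3, against 10.03 and 7.84 in M-CSF+RANKL. The PSS1-LMS culture was higher on both days, by 2.59 on day 6 and 1.21 on day 3. The difference was 1.90 ± 0.30 (95% interval 1.26 to 2.54, limma adjusted p = 0.0332), 3.74-fold higher. Of all measured genes 0.175% were called in this comparison, 17 higher (0.156%) and 2 lower (0.0184%). The 17 include Ptdss1 itself, at 8.18 (limma adjusted p = 5.58e-09). With array medians aligned or after quantile normalization 1 gene was called, higher, and it was not Cd36.

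The Cd36 call rested on single arrays and on the scaling. Without the PSS1-LMS array of day 6 the difference was 1.36 (limma adjusted p = 0.169), and it was 1.41 with the day 6 sample of M-CSF+RANKL left out (limma adjusted p = 0.0628). With array medians aligned, the difference was 1.89 (limma adjusted p = 0.0692).

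In PSS1-WT, Cd36 stood at 11.84 and 9.05 on days 6 and 3, against the same M-CSF+RANKL values of 10.03 and 7.84. The 2 PSS1 cultures had the same rounded value on day 3, and both were above M-CSF+RANKL. The log2 difference of 1.52 ± 0.30 (95% interval 0.88 to 2.15) did not pass the test (limma adjusted p = 0.340). With the day 3 sample of M-CSF+RANKL left out the difference was 2.01, and without either PSS1-LMS array it was still 1.52. Each of these fits left 1 array in a culture, and Cd36 was called in them. Without a PSS1-LMS array its error was 0.29. The call there came from how limma models the error and not from a larger difference. No member was called in PSS1-WT against M-CSF+RANKL, and Ptdss1 was the 1 gene called of all measured, 0.0092%. At an unadjusted p under 0.05, 4 members and 746 genes (6.86%) would have passed.

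The summed log2 level of the 8 macrophage markers was 16.49 and 16.57 in PSS1-LMS and 16.49 and 16.77 in PSS1-WT on days 6 and 3, against 16.41 and 16.75 in M-CSF+RANKL. Csf1r made up nearly all of each sum. Of the others, Mrc1 was at 11.04 and 9.97 in PSS1-LMS, against 9.69 and 9.26 in M-CSF+RANKL. C5ar1, Adgre1 and Ly86 were also higher in PSS1-LMS on both days, the last 2 at 10.17 and 7.80 on day 6, against 9.16 and 6.66 in M-CSF+RANKL. These 4 markers, like Cd36, were above M-CSF+RANKL on both days in PSS1-LMS. The other macrophage markers were not: Csf1r and Cd14 were lower in PSS1-LMS on day 3, and Fcgr1 and Cd163, within background, on day 6. In PSS1-WT, where Cd36 was also higher on both days, none of the 4 was above M-CSF+RANKL on both days. The median difference over the 8 was 0.32 in PSS1-LMS and -0.02 in PSS1-WT. The part of these markers in the Cd36 result was not tested.

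Cd36 was at least 2-fold higher on both days in PSS1-LMS, in common with 0.276% of measured genes, and in PSS1-WT, in common with 0.046%. The comparisons share the M-CSF+RANKL arrays, and 2 genes (0.0184%) met this in both. No other member met it in either.

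The other members differed from M-CSF+RANKL by less than 1 log2 unit in either PSS1 culture. In PSS1-LMS the differences not called were led by Mertk at 0.84 ± 0.26 (limma adjusted p = 0.418), Lrp1 at 0.75 ± 0.25 (limma adjusted p = 0.452) and Gas6 at -0.58 ± 0.28 (limma adjusted p = 0.786). Lrp1 was at 10.91 and 10.06 in PSS1-LMS, against 9.97 and 9.48 in M-CSF+RANKL, while the Mertk values of both cultures were within background. The remaining 6 lay between -0.32 for Mfge8 and 0.37 for Pros1. In PSS1-WT the largest were Stab1 at 0.70 (limma adjusted p = 0.679), Mertk at 0.59 (limma adjusted p = 0.707) and Mfge8 at -0.58 (limma adjusted p = 0.680).

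Among the pathway lists, Trem2 was the 1 other gene called in PSS1-LMS, higher by 1.59 ± 0.26 (limma adjusted p = 0.0348). Without the PSS1-LMS array of day 6 its difference was 1.34 (limma adjusted p = 0.186), and with array medians aligned it was 1.58 (limma adjusted p = 0.0692). Trem2, like Cd36, was among the genes lower with RANKL than without it.

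PSS1-LMS and PSS1-WT were not told apart by any member. No gene of the 10871 passed the limma test between them, and at an unadjusted p under 0.05 there were 773 genes (7.11%) and 1 member, Dock1. Dock1 had 7.42 and 7.25 in PSS1-LMS, against 6.73 and 6.43 in PSS1-WT on days 6 and 3, a difference of 0.76 ± 0.24 (95% interval 0.24 to 1.27, limma adjusted p = 0.588). For Cd36 the difference was 0.39 with a 95% interval of -0.25 to 1.02 (limma adjusted p = 0.838), which includes both 0 and a 2-fold higher level in PSS1-LMS.

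**Figure D4:**
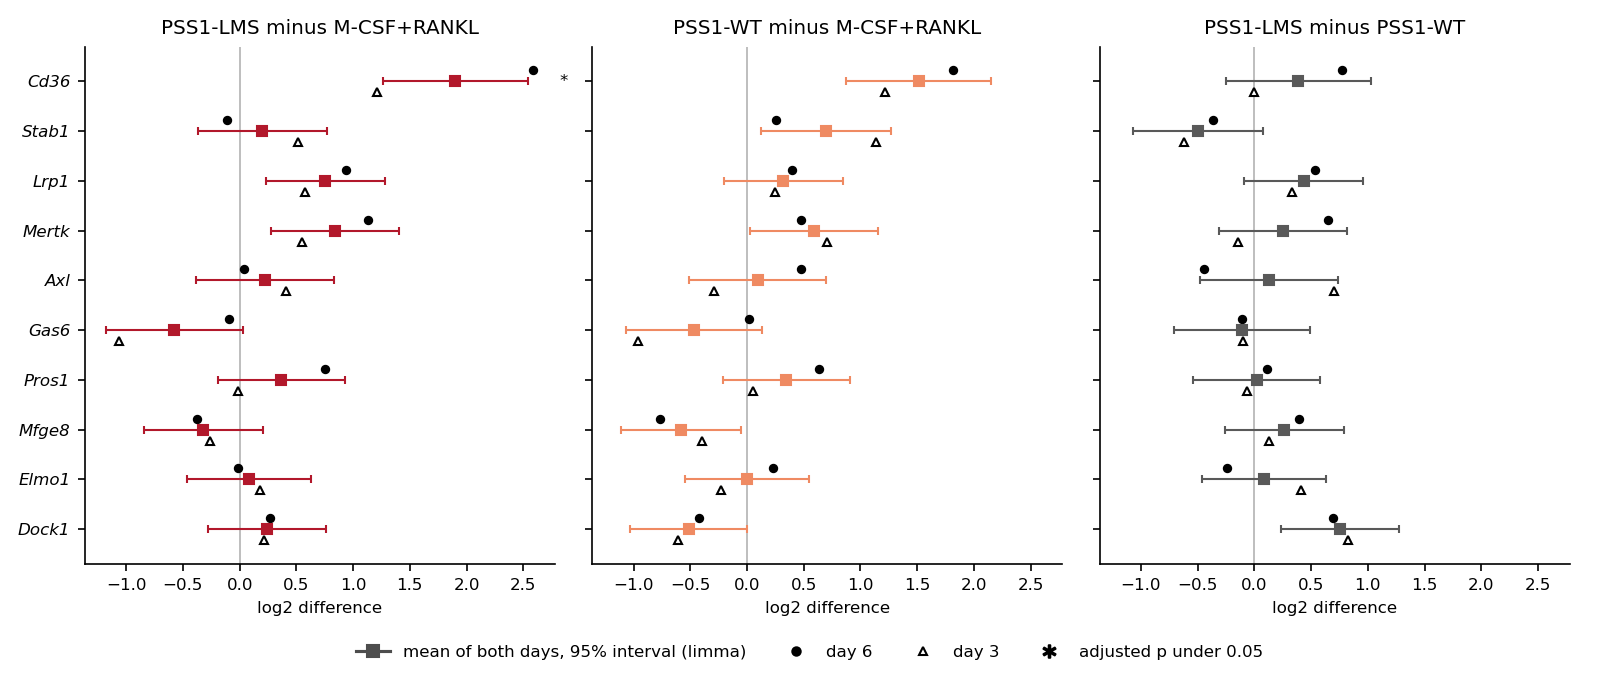
Log2 difference of each member in PSS1-LMS minus M-CSF+RANKL, PSS1-WT minus M-CSF+RANKL and PSS1-LMS minus PSS1-WT, with squares for the limma mean of both days, bars for its 95% interval, circles for day 6 and triangles for day 3. Cd36 lies highest in the comparisons with M-CSF+RANKL, at 1.90 and 1.52, and the 3 panels share arrays.

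Between days, Cd36 and Gas6 had the largest differences. Cd36 was higher on day 6 than on day 3 by 3.57 in PSS1-LMS, 2.79 in PSS1-WT, 2.19 in M-CSF+RANKL and 1.34 in M-CSF. Averaged over the cultures the log2 difference was 2.47 ± 0.35 (limma adjusted p = 0.0455), in a comparison that called 0.285% of all measured genes, 0.101% higher and 0.184% lower. The call was lost, at limma adjusted p of 0.237 to 0.374, without any 1 of the 6 arrays with RANKL.

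Gas6 was higher on day 6 by 2.14 in PSS1-LMS, 2.15 in PSS1-WT, 1.17 in M-CSF+RANKL and 3.13 in M-CSF. Its mean difference of 2.15 ± 0.32 missed the threshold (limma adjusted p = 0.0538). Cd36 and Gas6 were at least 2-fold higher on day 6 in all 4 cultures, in common with 0.147% of measured genes. Counting any size, 6 members (Cd36, Mertk, Gas6, Mfge8, Dock1 and Lrp1) were higher on day 6 in all 4 cultures, as were 7.77% of measured genes. All 6 Mertk values with RANKL were within background, so its order in those cultures carries no measured difference. The Gas6 values of both PSS1 cultures on day 3 were also within background. The neutrophil markers moved the other way between the days, and their part in these differences was not tested.

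The day difference of the M-CSF culture was set against that of the 3 cultures with RANKL by an interaction term, which called 22.3% of measured genes, 12.8% higher and 9.49% lower. The median of all genes in it was 0.03, and 0.15 with array medians aligned. Mertk changed more in M-CSF, by 2.94, than in PSS1-LMS, PSS1-WT and M-CSF+RANKL, by 1.14, 0.34 and 0.56, an interaction of 2.26 ± 0.43 (log2, limma adjusted p = 0.00182). All 6 Mertk values with RANKL were within background. Of the 8 macrophage markers, Adgre1 and Mrc1 were also called higher in this term. So were Acp5, Atp6v0d2 and Nfatc1 of the 10 osteoclast markers, and no marker of either list was called lower. Acp5 was within background on both M-CSF arrays, so its call carries no measured change in M-CSF. Atp6v0d2 was within background on the M-CSF array of day 3, at 4.23. The part of these markers in the Mertk interaction was not tested. Cd36 changed less in M-CSF than with RANKL, with an interaction of -1.50 ± 0.49 (limma adjusted p = 0.0384). Without either PSS1-LMS array it was -1.15 and not called. The Gas6 interaction of 1.31 ± 0.46 did not pass (limma adjusted p = 0.0531), and the other 7 were not called, from -0.87 for Elmo1 to 1.004 for Mfge8.

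**Figure D5:**
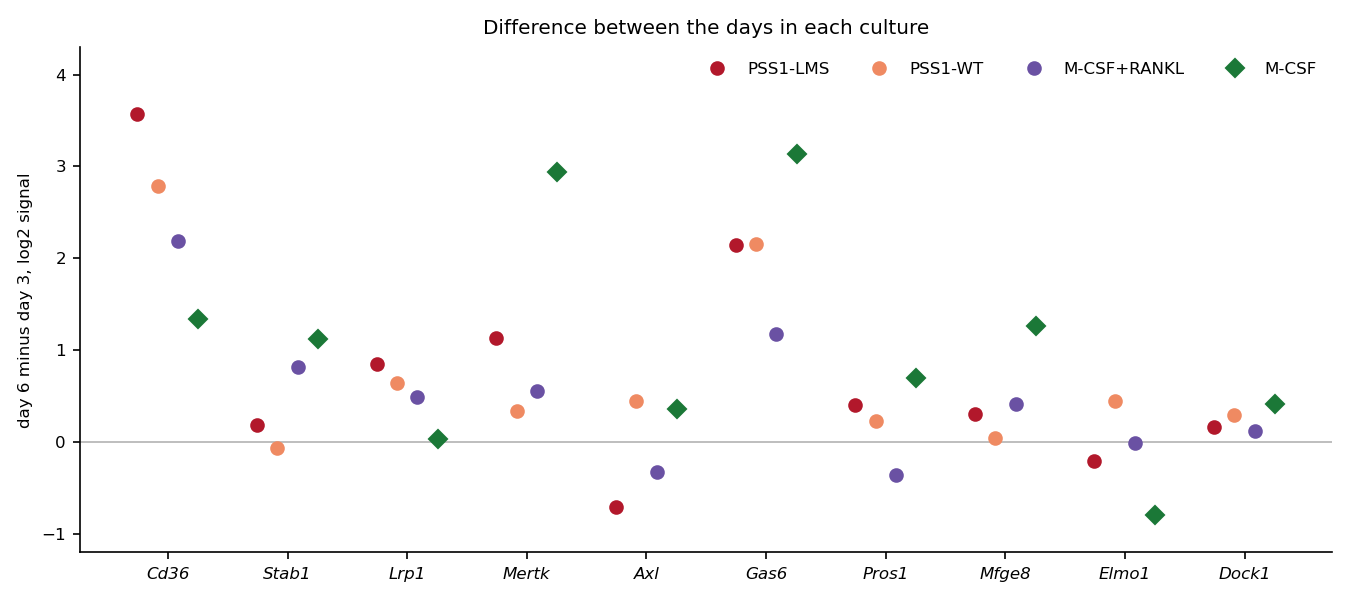
Log2 difference day 6 minus day 3 of each member in each culture, 1 point per culture in the order PSS1-LMS, PSS1-WT, M-CSF+RANKL and M-CSF. Cd36 and Gas6 lie above 1 in all 4, and Mertk reaches 2.94 in M-CSF.

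The genes most like each member were sought over the 8 arrays among 3113 measured genes whose values span at least 2 log2 units, by Pearson correlation. The M-CSF arrays stand apart from the arrays with RANKL, every one of these correlations shares that split, and they are given as a description. Cd36 had 3 genes above 0.99 (Peak1 at 0.994, Igf1 at 0.992 and Adam17 at 0.990), while Pros1 had 34 and Mertk 33. The nearest to Pros1 was Tifa (0.998). Nearest to Mertk were Cd300lb (0.998), Fam114a1 (0.997) and Sash1 (0.996). Nearest to Gas6 were Folr2 (0.992), Xdh (0.991) and Pilrb1 (0.990). Nearest to Stab1 were Mndal (0.999) and Pgm2l1 (0.998), and Lrp1 came closest to Snx30 (0.998).

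For Mfge8, the member that rose, the nearest were Cd59a (0.997), Gtf2h3 (0.995) and Gpr137b (0.995). Elmo1 was nearest to Nusap1 (0.994), Ugp2 (0.992) and H4c12 (0.988), with 2 genes above 0.99. Axl spans 1.40 log2 units and was not ranked.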

How the data were processed

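Affymetrix arrays were run on 8 samples, 1 per culture and day, with biotinylated cDNA from 500 ng of total RNA each, per the labels' protocols. The authors deposited 1 table of log2 signals, with 28846 features. The authors' probe summary and normalization are not given in the sources used here, and the values themselves show the log2 scale, since they run from 1.25 to 19.93, the log2 of 1000000. The signals were used as deposited. Of 22206 transcript clusters 19572 had 1 symbol, which gave 19505 genes; 55 genes had several clusters, of which the one with the highest mean was used.

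Models with a culture term and a day term were fitted by lmFit and eBayes (limma 3.58.1, R 4.3.3), and p-values were adjusted by Benjamini-Hochberg over 10871 genes. The RANKL, day and interaction fits used all 8 arrays and the PSS1 fits the 6 with RANKL, which left 3 residual degrees of freedom without the interaction on 8 arrays and 2 otherwise. From all measured genes eBayes added 4.7 prior degrees of freedom in the RANKL and day fits. In the PSS1 and interaction fits it added 13.3, so most of the error there was borrowed from other genes. Where the lower side was within background, folds were computed from the background signal and are lower bounds.

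On simulated data of 10871 genes, the RANKL fit recovered 54% of 4-fold and 90% of 16-fold changes, the PSS1-LMS fit 62% of 4-fold and 4% of 2-fold changes, the day fit 76% of 4-fold changes, and the interaction fit 6% of 4-fold and 62% of 16-fold changes. In each simulation 50 genes changed at each log2 size from 1 to 4, with residual spreads shuffled between genes. That is a far smaller share than the 26.4% and 22.3% called in the RANKL and interaction comparisons. Recovery in those comparisons is therefore not known from these simulations. The number of arrays limits the precision.

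The genes and lists were chosen with earlier results of these data known. All 10 members are described in every comparison. Of the other lists, in the RANKL comparison alone, the 3 largest called changes per list are named, and all genes where a direction had 5 or fewer calls. Array scaling, filters, eBayes settings, the arrays in the fit and leaving out each array were tried as alternatives. Promoter windows came from RefSeq (GRCm38.p6), matched by symbol.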

Additional observations from a re-analysis of the deposited data

Results flagged for a closer look

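Results are listed here because an interaction term found the difference between days to differ between the M-CSF culture and the cultures with RANKL. The term called 22.3% of measured genes, 12.8% higher and 9.49% lower, and 2 of the 10 members, near that share. For Mertk the interaction was 2.26 on the log2 scale (limma adjusted p = 0.00182), with a difference of 2.94 in M-CSF and of 1.14, 0.34 and 0.56 in PSS1-LMS, PSS1-WT and M-CSF+RANKL. All 6 Mertk values with RANKL were within background. For Cd36 it was -1.50 (limma adjusted p = 0.0384), with a difference of 1.34 in M-CSF and of 3.57, 2.79 and 2.19 in PSS1-LMS, PSS1-WT and M-CSF+RANKL. The M-CSF culture gives 1 such difference and the others are taken as replicates. The Cd36 call held in 9 of 14 alternatives.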

How the results depend on the processing

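No separate paired analysis was run, because each culture and day has 1 array. The culture and day terms already compare cultures within a day and days within a culture. In M-CSF+RANKL against M-CSF the number of members called was 9, and 8 to 10 under every alternative. Cd36, Mertk, Gas6, Pros1, Mfge8, Stab1, Dock1 and Lrp1 were called under all 18 of them. Elmo1 was called in 15, and missed with only the 4 arrays of both cultures (limma adjusted p = 0.0583). Axl was called in 2 of 16, with 6 arrays against 2 (limma adjusted p = 0.0142) and without the M-CSF array of day 3 (limma adjusted p = 0.00808).

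In PSS1-LMS against M-CSF+RANKL the count of 1 became 0 with array medians aligned, after quantile normalization, without the filter, with values raised to the brightest background and with all 8 arrays in the fit, and leaving out 1 array gave 0 to 1. Cd36 was called in 8 of 15 alternatives, with a highest limma adjusted p of 0.9999, and its difference kept its sign at 1.36 to 2.44. In PSS1-WT against M-CSF+RANKL leaving out 1 array gave 0 to 1. Between days the count of 1 became 2 without the filter and with the 6 arrays with RANKL, and 0 with the filter at background, with values raised and with robust eBayes; leaving out 1 array gave 0 to 2. Quantile normalization kept the count at 1 with another gene, since Cd36 missed (limma adjusted p = 0.0605) and Gas6 passed (limma adjusted p = 0.0462). Cd36 was called between days in 7 of 17 alternatives and Gas6 in 5. For the interaction the count of 2 became 1 without the filter and 4 with values raised, and leaving out 1 array gave 2 to 3. Cd36 passed in 9 of 14 there, Mertk in all 14 and Gas6 in 8.

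Differences that were not called changed sign in places. With values raised to background, Gas6 in PSS1-WT against M-CSF+RANKL was 0.0102. Leaving out 1 array gave -0.16 to 0.60 for Axl and -0.18 to 0.58 for Stab1 in PSS1-LMS against M-CSF+RANKL. In PSS1-WT against M-CSF+RANKL it gave -0.39 to 0.57 for Axl, -0.28 to 0.28 for Elmo1 and -0.96 to 0.0183 for Gas6. In PSS1-LMS against PSS1-WT it gave -0.15 to 0.93 for Cd36, -0.0918 to 0.60 for Mertk, -0.35 to 0.61 for Axl and -0.20 to 0.36 for Elmo1. The cause of these changes was not tested. Signals within background limit Axl, Mertk, Pros1 and Stab1 most.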
